A study of Mus musculus with 192 samples.

Results

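Agouti-related peptide (Agrp, mouse gene ID 11604, on chromosome 8) was 1 of 43 target genes counted in the brain of L44 mice. Its counts were followed through all 192 RNA pools, made from 341 tissue samples, with the midbrain dissection first. In each pool the Agrp count was set against the geometric mean of the 3 reference genes, and a count no higher than 2 SD above the mean of that pool's 8 negative probes was taken as at or under background. A normalised count is the count divided by that reference mean and multiplied by the average reference mean of all pools.

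Agrp is made by neurons of the arcuate nucleus of the hypothalamus that drive feeding. These cells also make neuropeptide Y (Npy), and the released AgRP peptide blocks the melanocortin 4 receptor (Mc4r), where it opposes the products of Pomc neurons. Leptin, acting through Lepr, Jak2 and Stat3, and insulin, acting through its receptor, PI3-kinase, Akt and Foxo1, are known to lower Agrp transcription, and fasting raises it. In the mouse brain the arcuate nucleus is by far the main site of Agrp expression.

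L44 mice carry a transgene for triprolyl-human amylin under the rat insulin 2 promoter, which is used to direct expression to pancreatic beta cells. The line was made by microinjection on an FVB/n background. Hemizygous (HEM) and homozygous (HOM) males were compared with nontransgenic (NON) males, all on standard chow. Brains were taken at T1 (100 days, before diabetes), at T2 (onset of diabetes, 3 consecutive glucose readings over 11 mM, with NON mice of like age, 90 to 286 days) and at T3 (400 days, after diabetes). Tissue was collected in the morning (AM) or afternoon (PM). Each brain gave a hindbrain sample with the cerebellum, a left and a right cortex, and a midbrain sample that held the rest of the brain, forebrain and hypothalamus included. A pool held RNA of 1 or 2 mice, so p-values measure the spread between such pools. The midbrain was counted in 49 pools (18 NON, 16 HEM and 15 HOM), the hindbrain in 46, the left cortex in 48 and the right cortex in 49. Summed over the target genes, depth was 125321 to 314759 counts in midbrain pools and 3489 to 252890 in hindbrain pools. Left cortex pools had 51446 to 490984 counts, and right cortex pools had 90264 to 525264.

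The hypothalamic markers on the panel were checked against the dissection. Hcrt and Mch, peptides of the lateral hypothalamus, were above background in 49 of 49 midbrain pools. Relative to the reference genes, the log2 fold-change of midbrain over hindbrain was 4.81 for Hcrt and 7.41 for Mch. It was 1.07 for Pomc, 2.27 for Npy and 1.38 for Cart, a peptide that restrains feeding. Hdc, which makes histamine in the tuberomammillary nucleus, differed by only 0.12. Some pools stood apart. In 4 hindbrain pools and 1 left cortex pool, all of T3, the median reference mean of the region was over 4 times that of the pool, and in 5 hindbrain pools of T1 the normalised Hcrt count was over 2 times the hindbrain median. In 2 midbrain pools, T1 HEM pools 1/2 and 5/6, normalised Hdc was 92.3 and 56.9 against a midbrain median of 249, with Agrp at 44.5 and 32.0. These 2 pools carry no collection time and were in no genotype comparison within AM or PM.

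Agrp was most abundant in the midbrain dissection, and this was the only region where it was above background in every pool. Raw counts were 18 to 208 per midbrain pool (median 110), or 1.02 to 11.5 times the background limit of the pool (median 5.04). Raw counts in the hindbrain were 2 to 192 (median 34.5), with 6 of 46 pools at or under background. The left cortex gave 2 to 60 (median 29.5) with 15 of 48 pools at or under background, and the right cortex gave 9 to 74 (median 40) with 17 of 49. Of these 32 cortical pools, 28 were of T3, when the reference mean of the cortical pools was also lowest. The plot of counts against the background limit shows that most cortical pools of T1 and T2 lay above the limit, with medians of 1.75 and 1.34 times the limit in the left cortex and 1.50 and 1.48 in the right, and 4 at or under it. Most cortical pools of T3 lay under it.

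**Figure D1:**
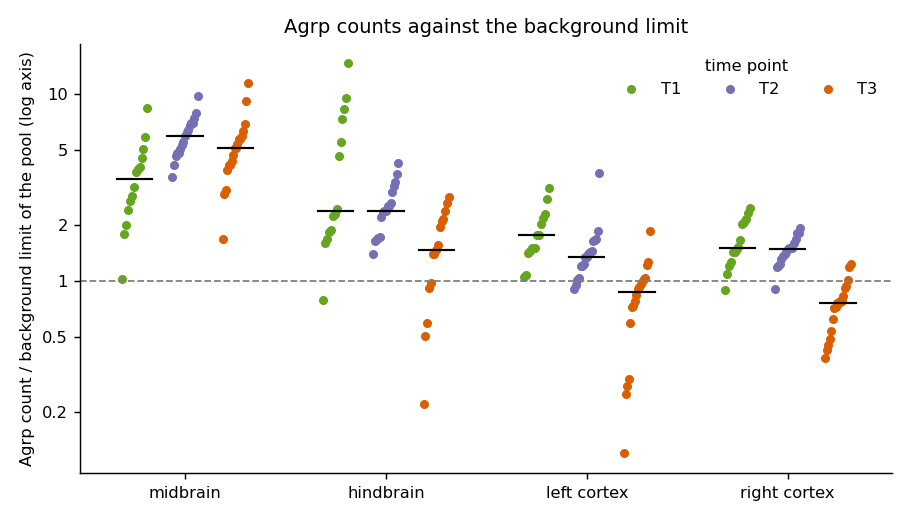
The raw Agrp count divided by the background limit of the pool (log axis) for each pool, by region and time point. Bars mark medians and the dashed line marks the limit. All 49 midbrain pools lie above the line, against 40 of 46 hindbrain, 33 of 48 left cortex and 32 of 49 right cortex pools.

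Normalised Agrp was 107 ± 34.0 (SD, n = 49) in the midbrain and ranged from 32.0 to 174. It was 62.1 ± 72.9 (SD, n = 46) in the hindbrain, where the median was 37.9 and the highest pool reached 420. The left cortex was at 27.2 ± 8.25 (SD, n = 48) and the right cortex at 29.3 ± 7.12 (SD, n = 49), and these 2 overlapped over most of their ranges. Without the pools of low reference mean and high Hcrt, the hindbrain was at 37.9 ± 12.8 (SD, n = 37), within reach of the cortical values. The order was therefore midbrain, then hindbrain, then the 2 cortices, with the hindbrain mean held up by a few pools.

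In edgeR's quasi-likelihood test, Agrp was 2.35-fold higher in the midbrain than in the hindbrain (log2 fold-change 1.23, SE 0.11, adjusted p = 1.88e-20), where 79.1% of the 43 genes were called higher. A gene was called at an adjusted p under 0.05, whatever the size of the change. Against the left cortex Agrp was 3.84-fold higher (log2 fold-change 1.94, SE 0.11, adjusted p = 7.11e-34), where 44.2% of genes were higher. Against the right cortex it was 3.68-fold higher (log2 fold-change 1.88, SE 0.11, adjusted p = 2.53e-34), where 48.8% of genes were higher. With the mean of the negative probes subtracted, the 3 values were 1.50, 2.59 and 2.59, each larger than without subtraction. The smallest values among the alternatives were 0.74 against the hindbrain (NON pools only), and 1.72 against the left and 1.46 against the right cortex (positive controls used for scaling), and each was called. In pools of the same mice, the midbrain was higher than the hindbrain in 32 of 38, than the left cortex in 46 of 46 and than the right cortex in 45 of 46. In bulk tissue, fewer Agrp neurons and less Agrp RNA per neuron cannot be told apart.

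Of the 8 other feeding genes on the panel (Npy, Pomc, Cart, Mc4r, Hcrt, Mch, Hdc and Hrh1), 8 were higher in the midbrain than in the hindbrain, with a median log2 fold-change of 1.33 against 0.34 over all 43 genes. Against the left cortex 6 were higher and 2 lower (median 2.05 against 0.02), and against the right cortex 6 were higher and 1 lower (median 2.03 against 0.05). Npy, which cortical interneurons also make, was among the lower ones, with a log2 fold-change of -1.32 against the left cortex and -1.29 against the right cortex. Agrp and Npy, made together in the arcuate nucleus, therefore ran opposite ways between midbrain and cortex. The 18 genes of leptin and insulin signalling, which are active in most cells, gave 12 higher and 5 lower against the hindbrain, 5 and 7 against the left cortex and 6 and 8 against the right cortex. Over all 43 genes, 34 were higher and 6 lower against the hindbrain, 19 and 17 against the left cortex and 21 and 16 against the right cortex.

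At T1 in the midbrain, normalised Agrp in the NON PM pools was 150, 159 and 83.9, and in the NON AM pools 76.6 and 83.8. The HEM PM pools were at 67.2 and 102, the HOM PM pools at 52.7 and 94.4 and the HOM AM pools at 64.4 and 88.3. A pair of NON PM pools was above every transgenic pool of T1, while the remaining NON PM pool lay among them, so the groups overlapped. The log2 fold-change against NON PM was -0.63 for HEM (SE 0.38, adjusted p = 0.26) and -0.83 for HOM (SE 0.39, unadjusted p = 0.038, adjusted p = 0.235). In the AM pools HOM differed from NON by -0.06 (SE 0.42, adjusted p = 0.958).

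At T2, when transgenic mice had become diabetic, genotypes lay close together. The NON PM pools were at 121, 79.8, 126, 122 and 105 and the NON AM pools at 144 and 111. HEM pools were at 120, 139 and 83.5 in the PM and 152 and 84.6 in the AM. HOM pools were at 117, 85.4 and 135 in the PM and 143 and 114 in the AM. All 3 genotypes covered about the same range. The 4 comparisons with NON gave log2 fold-changes from -0.13 to 0.04, and the smallest adjusted p was 0.873. The NON pools had been matched to the transgenic pools by age. With the 7 sets of age-matched pools as a block and T2 pools alone, the differences were -0.14 (SE 0.22) for HEM and 0.02 (SE 0.22) for HOM in the AM, and -0.05 (SE 0.17) and -0.00012 (SE 0.17) in the PM and none was called. Without the block, the 95% intervals were widest in the AM, from -0.90 to 0.65 for HEM and -0.77 to 0.78 for HOM. In the PM they ran from -0.52 to 0.61 and from -0.54 to 0.58, or 0.696 to 1.53 and 0.686 to 1.50 of the NON level.

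At T3 the NON AM pools were at 72.2, 119 and 97.9 and the NON PM pools at 120, 65.1 and 128. HEM pools were at 103, 135, 51.9 and 174 in the AM and 138 and 92.0 in the PM. HOM pools were at 165, 163, 98.3, 146 and 132 in the AM, with 1 PM pool at 94.9. Of the 5 HOM AM pools, 4 lay above all 3 NON AM pools. The log2 fold-change was 0.55 for HOM (SE 0.29, unadjusted p = 0.0664, adjusted p = 0.168), 0.27 for HEM in the AM (SE 0.31, adjusted p = 0.604) and 0.13 for HEM in the PM (SE 0.37, adjusted p = 0.982). With the positive controls used for scaling instead, the HOM difference in the AM was 0.82 (adjusted p = 0.027). HOM against NON in the PM was not tested, with 1 HOM pool.

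Across the 10 tested genotype comparisons in the midbrain, Agrp was called in 0 by edgeR and in 0 by DESeq2, and had an unadjusted p under 0.05 in 1. Over all genes, 5.58% of such tests were called. Averaged over the tested comparisons of a genotype, the log2 fold-change was -0.06 for HEM (95% interval -0.37 to 0.25, adjusted p = 0.802) and -0.06 for HOM (-0.38 to 0.25, adjusted p = 0.972). These means leave out T1 AM for HEM and T3 PM for HOM. For Agrp 0 of the 2 were called, against 18.6% of such tests over all genes. On a linear scale these intervals ran from 0.774 to 1.19 and from 0.770 to 1.19 of the NON level. HOM and HEM differed by -0.21 to 0.28 in 4 comparisons, with 0 called (all genes, 1.74%). The 7 tests of whether an effect differed between collection times or time points also called 0 for Agrp (all genes, 0.332%). The widest of them were the HOM effect in PM minus that in AM at T1 (-0.77, SE 0.57, adjusted p = 0.42) and the HOM effect at T3 minus that at T1 (0.65). The last of these takes in the single HOM PM pool of T3, assumed to vary like the pools of the other groups. Scaled by the positive controls, it was 1.07.

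**Figure D2:**
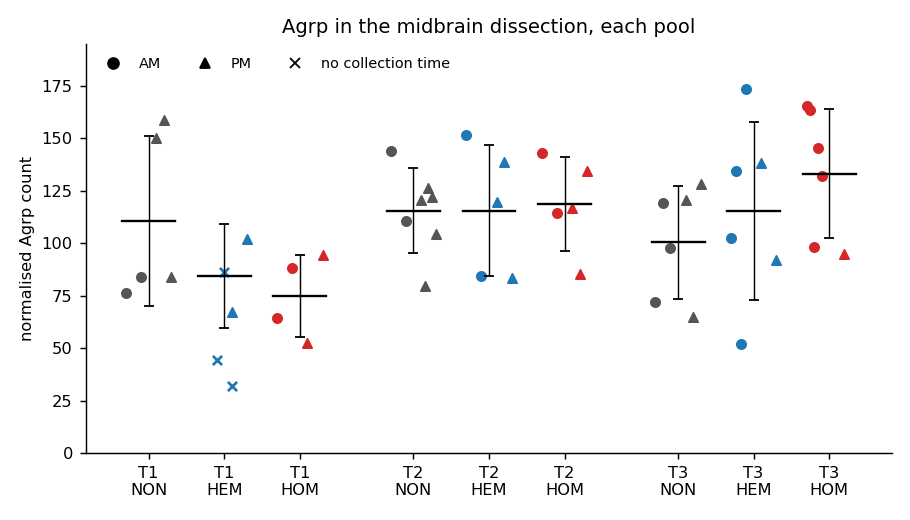
Normalised Agrp count of each midbrain pool by time point and genotype; circles are AM, triangles PM and crosses pools without a collection time. Bars and whiskers give mean ± SD over the pools of a genotype and time point, crosses left out. The genotypes overlap at every time point, with T2 values between 79.8 and 152.

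Some other feeding and signalling genes moved with genotype in the same midbrain pools, in shares near those of the whole panel. Averaged over time points, Npy rose in HEM by a log2 fold-change of 0.36 (SE 0.13, adjusted p = 0.025) and Hcrt, the wake-promoting orexin peptide, fell by 0.28 (SE 0.09, adjusted p = 0.017), while the remaining 6 feeding genes did not pass. In HOM 0 of 8 feeding genes and 1 of all 43 genes passed. Pomc differed by 0.25 in HEM (SE 0.15, adjusted p = 0.2) and by 0.22 in HOM (SE 0.15, adjusted p = 0.618). Of the 18 signalling genes, 8 rose in HEM and 0 fell, with a median of 0.08 against 0.04 over all genes, of which 14 of 43 rose and 1 fell. Jak2, the kinase of the leptin receptor, rose by 0.14 (SE 0.04, adjusted p = 0.007), and Stat3, the leptin-activated transcription factor, by 0.16 (SE 0.05, adjusted p = 0.012). Stat3 was the 1 of 18 signalling genes, and the 1 of all 43 genes, that rose in HOM, by 0.19 (SE 0.05, adjusted p = 0.034). Agrp itself was at -0.06 in each of these contrasts.

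Of the 10 single comparisons, 6 called 0 of 43 genes by edgeR: HEM in T1 PM, T2 AM, T2 PM and T3 PM, and HOM in T1 AM and T2 AM. The remaining 4 called 3 to 12 genes, none of them Agrp. In HOM PM pools at T2, with 3 of 43 genes called, where Agrp differed by 0.02, Npy rose by 0.81 (SE 0.24, adjusted p = 0.026), Stat3 by 0.35 (SE 0.09, adjusted p = 0.011) and Socs3, an inhibitor of leptin signalling, by 1.55 (SE 0.38, adjusted p = 0.011). In HOM PM pools at T1, also with 3 of 43 called, where Agrp differed by -0.83 without passing, Socs3 rose by 1.71 (SE 0.49, adjusted p = 0.045) and Stat3 by 0.38 (SE 0.12, adjusted p = 0.045). In HOM AM pools at T3, 8 of 18 signalling genes rose, among them Insr (0.23, SE 0.06, adjusted p = 0.004), Jak2 (0.20, SE 0.07, adjusted p = 0.033) and Foxo1 (0.17, SE 0.06, adjusted p = 0.046), with a list median of 0.16 against 0.12 over all genes, of which 12 of 43 rose and 0 fell. In HEM AM pools at T3, 4 of 18 signalling genes rose (Jak2, Pde3b, Pdk1 and Pik3ca), as did 6 of all 43 genes. The log2 ratio of Agrp to Npy in T2 PM pools was lower than in NON by 0.52 in HEM and 0.79 in HOM, and that of Agrp to Pomc by 0.49 and 0.45. In T3 AM pools, the Agrp to Npy ratio differed from NON by -0.13 in HEM and 0.31 in HOM, and the Agrp to Pomc ratio by 0.0042 and 0.11. Exact two-sided permutation tests of these 8 differences gave an unadjusted p of 0.0357 for Agrp to Pomc in HOM at T2, and the smallest adjusted p was 0.286, so none passed. These tests did not use the age matching of T2 pools.

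Between time points, the mean of midbrain Agrp over all pools was lowest at T1, but not in NON. Its normalised count was 84.6 ± 35.5 (SD, n = 14) at T1, or 92.9 ± 33.6 (SD, n = 11) over the pools with a collection time, which alone were tested. It was 117 ± 22.8 (SD, n = 17) at T2 and 116 ± 34.8 (SD, n = 18) at T3. The NON pools were at 111 ± 40.3 (SD, n = 5), 116 ± 20.2 (SD, n = 7) and 101 ± 26.8 (SD, n = 6). With genotypes averaged, T2 exceeded T1 by a log2 fold-change of 0.44 (SE 0.17, unadjusted p = 0.0137, adjusted p = 0.0657), where 11.6% of the genes were called, and Agrp just missed the threshold. It passed with TMM normalisation (0.48) and in DESeq2 (0.46). Of the 3 changes with genotypes averaged, edgeR called 0 and DESeq2 called 2. T2 against T1 also passed without T2 HEM PM pool 8/14 (0.48), T2 NON PM 4/13 (0.46), T2 HOM PM 6/9 (0.47) or T3 HEM AM 4/5 (0.44). It was 0.51 without T1 HEM PM pool 9/10 and 0.54 without T1 HOM PM pool 8/9, each leaving a group of a single pool. Within genotypes, the T2 minus T1 difference was 0.21 in NON (SE 0.25, adjusted p = 0.823), 0.42 in HEM (SE 0.38, adjusted p = 0.548) and 0.67 in HOM (SE 0.28, unadjusted p = 0.023, adjusted p = 0.201). The T3 minus T1 difference was -0.03 in NON (SE 0.25, adjusted p = 0.902) and 0.44 in HEM (SE 0.42, adjusted p = 0.51). In HOM it was 0.62, with the single HOM PM pool of T3 taken in. Agrp was called in 0 of the 9 changes within a genotype, against 22.0% of such tests over all genes. Scaled by the positive controls, the HOM difference from T1 was called for T2 (0.95, adjusted p = 0.0202) and was 0.98 for T3. From T1 to T3, 14 of the 18 signalling genes fell and 0 rose with genotypes averaged (median -0.18), as did 25 of all 43 genes, with 0 higher (median -0.17). Lepr fell by 0.31 (SE 0.04) and Jak2 by 0.30 (SE 0.04), while Agrp stood 0.32 higher (SE 0.18, adjusted p = 0.127). Of the feeding genes Hcrt, Hrh1 and Mc4r fell. Age and depth go with the time point and cannot be told apart from it.

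No difference in Agrp between collection times passed the test. NON PM pools exceeded NON AM pools by 0.71 at T1 (SE 0.37, adjusted p = 0.349) but were 0.21 lower at T2 (SE 0.33, adjusted p = 0.933), and over all time points the difference was 0.21 (SE 0.20, adjusted p = 0.698). None of 8 such tests called Agrp, against 1.16% over all genes. Mean age of a T2 pool ran from 114 to 271 days. Over the 7 NON pools of T2 it gave Pearson's r = 0.38 (exact permutation p = 0.419) and Spearman's rho = 0.29 (exact p = 0.556), and r fell to 0.14 without the 2 pools of most extreme age. Over all 17 T2 pools, as deviations from their group means, r was -0.13 (permutation p = 0.731) and rho -0.23 (p = 0.613), with r = 0.05 without the 2 most extreme. Adjusted over these 2 relations, the p of r was 0.731 for each.

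At T3 the labels also state whether the mice of a pool had previously been diabetic, and this label was given to pools of all 3 genotypes. Midbrain Agrp was higher in the pools with it. The 11 pools labelled yes lay between 94.9 and 174 (median 135) and the 7 labelled no between 51.9 and 103 (median 92.0). In NON, the yes pools were at 119, 120 and 128 and the no pools at 65.1, 72.2 and 97.9. In HEM, the yes pools were at 135, 138 and 174 and the no pools at 51.9, 92.0 and 103. Yes and no did not overlap within either genotype. In HOM, 1 pool was labelled no, at 98.3, and the yes pools were at 94.9, 132, 146, 163 and 165. The mean log2 difference was 0.66 in NON and 0.90 in HEM, each with an exact two-sided permutation p of 0.10, the smallest that 3 against 3 allows.

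A term for the label was then added to the midbrain model, a choice made after the Agrp values had been seen. It gave a log2 fold-change of 0.74 (SE 0.18, adjusted p = 0.00849), and Agrp was the 1 gene of 43 called, or 2.33%. Leaving out single T3 pools moved the value between 0.64 and 0.81, and without NON PM pool 5/6 the adjusted p was 0.0511 (0.70). Without the NON pools of T3 the value was 0.76 (adjusted p = 0.0923), and with NON alone 0.70 (adjusted p = 0.658). The other feeding genes did not pass, with Pomc at 0.29 (adjusted p = 0.542), Npy at 0.01, Cart at 0.05, Hcrt at -0.07 and Mch at -0.04. Of 18 signalling genes 0 passed, with a median of 0.01. The difference was larger in size but opposite for c-Fos, a gene switched on in active neurons, at -0.82 in the midbrain (SE 0.32, unadjusted p = 0.0158, adjusted p = 0.275). For c-Fos the hindbrain gave -1.48 (adjusted p = 0.0566), the left cortex -0.99 (adjusted p = 0.184) and the right cortex -1.03 (adjusted p = 0.0541). None was called, though the hindbrain and right cortex lay just over the threshold. This gene was chosen after its values were seen. For Agrp in other regions the term gave 0.71 for the hindbrain (adjusted p = 0.282), 0.22 there without the pools of low reference mean, 0.05 for the left cortex (adjusted p = 0.928) and -0.29 for the right cortex (adjusted p = 0.361). Pools labelled yes had a median reference mean of 6658 and those labelled no 5701, pools of 1 mouse were 3 of 11 and 3 of 7, and AM pools 7 of 11 and 5 of 7. The part of pool size and RNA amount was not tested.

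The label was spread unevenly over the genotypes. It was yes in 4 of 5 HOM AM pools, 2 of 4 HEM AM pools and 1 of 3 NON AM pools. With the transgenic pools labelled no left out and the NON pools kept, HOM differed from NON by 0.66 in T3 AM pools (adjusted p = 0.0537). With the label term in the model instead, HOM differed from NON by 0.20 in T3 AM pools (adjusted p = 0.676), in place of 0.55. HEM differed from NON by 0.11 in the AM (adjusted p = 0.775), in place of 0.27. In the PM the HEM difference was 0.28 with the term (adjusted p = 0.984), in place of 0.13.

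**Figure D3:**
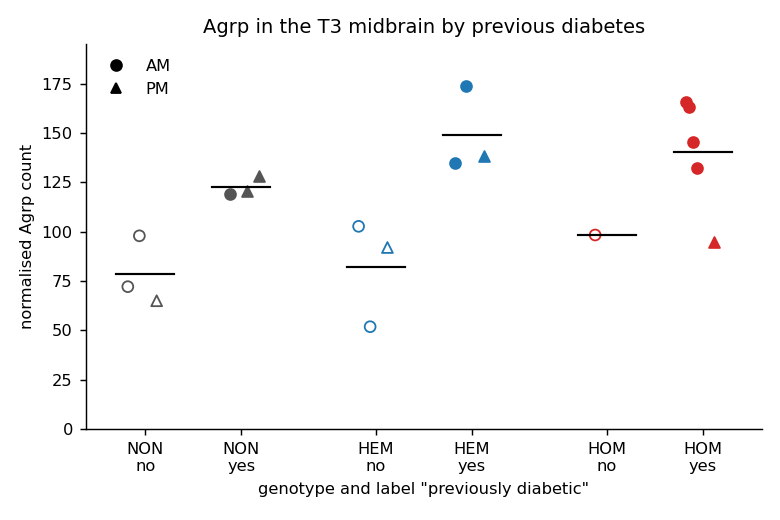
Normalised Agrp count of each T3 midbrain pool by genotype and by the label previously diabetic (filled, yes; open, no); circles are AM and triangles PM, and bars mark means. In NON and in HEM all 3 yes pools lie above all 3 no pools.

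Pomc was the gene whose pattern was most like that of Agrp among midbrain pools. Log2 normalised counts were taken as deviations from the mean of their time point, genotype and collection time in 45 pools of 16 groups. Pomc gave r = 0.55 and rho = 0.58 (permutation p = 0.00074, adjusted over 42 genes 0.0311), and r = 0.62 without the 2 most extreme pools. Agrp and Pomc lay on the same side of their group means in 33 of 45 pools. In a group of 2 pools the deviations mirror each other, so such pools are not separate observations in this count. Next by size of r came Hdac5, a histone deacetylase (r = -0.38, rho = -0.25, adjusted p = 0.637), and Akt2, a kinase of the insulin pathway (r = -0.37, rho = -0.37, adjusted p = 0.637). The median r over the 42 genes was -0.08, and Pomc was the 1 gene that passed. The log2 reference mean of the pool, which enters both genes, gave r = 0.36 with Agrp (permutation p = 0.108). With genotypes averaged, Pomc fell from T2 to T3 by 0.63 (SE 0.15, adjusted p = 0.000569), and Agrp differed by -0.10 (SE 0.15, adjusted p = 0.552). The difference between these 2 changes was not tested.

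**Figure D4:**
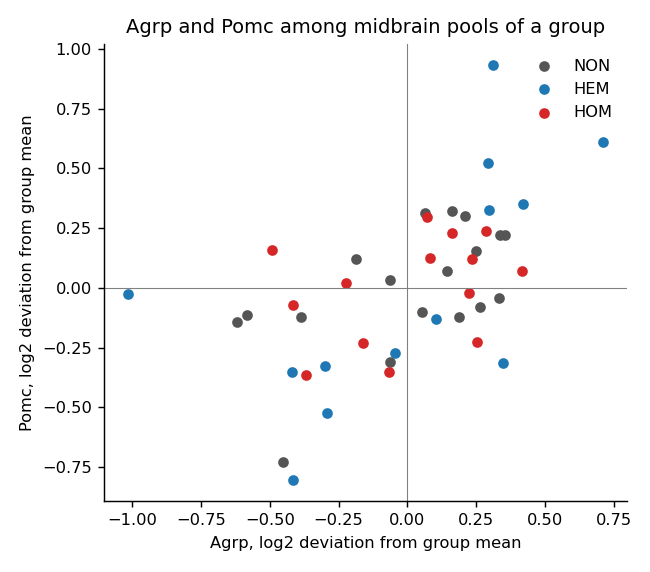
Deviation of log2 normalised Agrp (horizontal) and Pomc (vertical) from the mean of the group in 45 midbrain pools, coloured by genotype. In 33 pools the 2 genes deviate to the same side, where the pools of a group of 2 mirror each other.

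In the hindbrain, 2 of the 10 genotype comparisons within a collection time called Agrp, and so did 1 with AM and PM averaged, and all rest on 1 pool. Raw counts in the T3 AM pools were 15 and 20 in NON, 17 and 38 in HEM and 8, 2 and 22 in HOM. The NON pool with 20 counts, pool 7, had a reference mean of 267 against a hindbrain median of 4783, so its normalised count became 420, while the other NON pool was at 36.6. HEM was lower than NON by a log2 fold-change of -2.62 (SE 0.82, adjusted p = 0.021), where 2.33% of genes were called lower, and HOM by -2.52 (SE 0.85, adjusted p = 0.028), where also 2.33% were lower. Averaged over AM and PM at T3, HEM was lower by -1.78 (SE 0.50, adjusted p = 0.00966), where 2.33% of genes were lower. HOM stood at -1.70, with a single HOM PM pool. Without pool 7 the averaged HEM difference was -0.70 (adjusted p = 0.393), without all pools of low reference mean -0.77 (adjusted p = 0.361), and with scaling by the positive controls 0.54. For the AM comparisons of HEM and HOM, without pool 7 alone the values were -0.46 and -0.36, and without all pools of low reference mean -0.46 and -0.51, and in neither case was Agrp called. The NON AM group is then a single pool, assumed to vary like the pools of the other groups. With scaling by the positive controls the AM values were 0.35 and -0.28. Over the 10 hindbrain comparisons 5.58% of all gene tests were called. NON at T3 exceeded NON at T2 by 1.38 (SE 0.48, adjusted p = 0.016), where 9.30% of genes were higher, by 0.30 without pool 7 and by 0.37 without those pools, neither of which was called.

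At T1 the hindbrain pools of high Hcrt also held the most Agrp. HEM pools 1/2 and 5/6, both without a collection time, were at 178 and 214, NON AM pool 2/7 at 267, NON PM pool 6 at 74.0 and HOM AM pool 3/4 at 117. Their normalised Hcrt was 94.5, 146, 130, 56.0 and 57.1, and in the same mice midbrain Agrp was 44.5, 32.0, 76.6, 83.9 and 64.4. The remaining T1 hindbrain pools held 25.8 to 48.5. The part of the dissection line in these values was not tested. Without the high-Hcrt and low-reference pools, midbrain exceeded hindbrain by 1.52 in place of 1.23. Over 38 mouse pools measured in both, deviations from group means in midbrain and hindbrain gave r = -0.35 and rho = -0.31 (permutation p = 0.0584, adjusted over 6 region pairs 0.35), and r = -0.28 without the 2 most extreme, so the relation did not pass.

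**Figure D5:**
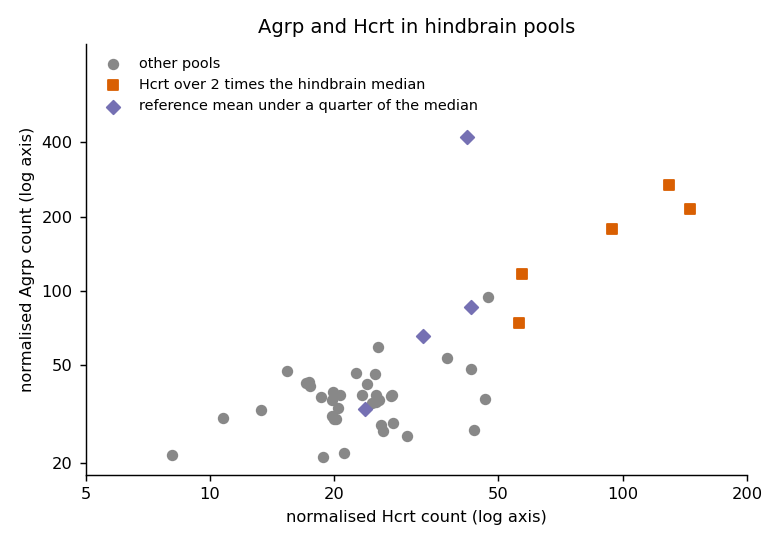
Normalised Agrp against normalised Hcrt in 46 hindbrain pools, both on log axes. The 5 pools of high Hcrt (squares) hold 74.0 to 267 of Agrp, and the pool at 420 is among the 4 of low reference mean (diamonds).

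In the cortex, Agrp lay near background and no genotype comparison called it. In the left cortex 0 of 9 comparisons passed, and 0 had an unadjusted p under 0.05 (all genes called, 1.55%). In the right cortex 0 of 10 passed, with 1 at an unadjusted p under 0.05 (all genes, 5.81%); DESeq2 called 0 in either. Normalised Agrp in the left cortex was 31.5 ± 6.01 (SD, n = 17) at T2 and 20.8 ± 7.90 (SD, n = 18) at T3, and in the right cortex 31.8 ± 4.38 (SD, n = 17) and 24.6 ± 7.10 (SD, n = 18). With genotypes averaged, T3 was below T2 by 0.58 in the left cortex (log2 fold-change -0.58, SE 0.15, adjusted p = 0.00076), where 67.4% of genes were lower, and by 0.38 in the right (-0.38, SE 0.12, adjusted p = 0.0037), where 58.1% were lower. T3 was also below T1 with genotypes averaged, by -0.43 in the left cortex (SE 0.18, adjusted p = 0.0337, 55.8% of genes lower) and -0.35 in the right (SE 0.13, adjusted p = 0.0194, 60.5% lower). Within genotypes, 1 of 9 changes over time was called in the left cortex, HEM T3 against T2 (-0.86, SE 0.25, adjusted p = 0.003, 65.1% of genes lower). In the right cortex 2 of 9 were called, HOM T3 against T1 (-0.56, SE 0.22, adjusted p = 0.029, 53.5% lower) and HOM T3 against T2 (-0.50, SE 0.22, adjusted p = 0.0411, 58.1% lower). HOM T3 against T2 was not called without any 1 of 7 HOM pools (T3 AM 2/7, 3/4, 6 or 10, T2 AM 1/3 or 5, or T2 PM 6/9), at -0.51 to -0.44, and HOM T3 against T1 without T1 pool 3/4 (-0.48) or 8/9 (-0.36). Both HOM changes of the right cortex also take in the single HOM PM pool of T3. For the 5 T2 HOM pools of the right cortex, 1 label field says hemizygous, while their titles and genotype labels say homozygous, which was used. With TMM normalisation, which takes such a shared shift out, none of these 7 was called. The averaged T3 against T2 values became -0.19 (left) and -0.04 (right), those against T1 -0.10 and 0.019, left HEM -0.45, and right HOM -0.20 against T1 and -0.14 against T2. Scaled by the positive controls, the 7 values lay between -2.01 and -1.36, and with the mean of the negative probes subtracted between -1.63 and -0.82, all called. At T3, 13 of 18 left and 15 of 18 right cortex pools were at or under background.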

How the data were processed

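RNA pools of 1 or 2 male mice were counted on the nCounter platform at 280 fields of view. The authors deposited raw counts per probe, with no background correction or normalization, for 43 target genes, 3 reference genes, 6 positive and 8 negative control probes. Groups were taken from the sample labels. Each region was fitted in 1 model in edgeR 4.0.16 (R 4.3.3), in which every combination of time point, genotype and collection time had its own mean. Library size was the geometric mean of the reference genes, the prior count was 0.125, and p-values were adjusted by Benjamini-Hochberg within a comparison (43 genes). Comparisons within a collection time were tested only with more than 1 pool in each group. Means over AM and PM, changes over time and region comparisons also took in groups of 1 pool, such as HOM PM at T3. Regions were compared in 1 model over all of them. The 12 T1 HEM pools with no stated collection time stayed out of these fits. Intervals are normal 95% intervals of the log2 fold-change and cover the spread between pools. Permutation tests and correlations used log2 normalised counts after adding 0.5, with 100000 permutations within groups or exact enumeration, in SciPy 1.17.1.

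Named genes were Agrp, 8 feeding genes, 18 genes of leptin and insulin signalling, and the 3 genes most like Agrp by r. Outside these, c-Fos was named after its values were seen. Agrp and the lists were chosen with earlier results of these data known. Alternatives were TMM, positive-control or Hcrt and Mch scaling, leaving out each reference gene or pool, DESeq2 1.42.0, the likelihood-ratio test, background subtraction, a low-count filter, and other sets of pools. The model was tested on simulated data with known changes. The study's tool, NanoStringDiff, was not used here. Results on 1 reference gene are not reported.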

Additional observations from a re-analysis of the deposited data

Results flagged for a closer look

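In right cortex HEM AM pools of T3, pool 4/5 was far from the others of its group, with a normalised Agrp count of 42.5. It was the 1 such pool in 11 groups of 4 to 10 pools, where chance gives about 1 in 20 groups. Among the T1 HEM pools without a collection time, which entered no comparison within AM or PM, 4 cortical pools lay above the highest NON pool of T1 in their region: left cortex pool 3/4 at 40.9, and right cortex pools 1/2 at 42.1, 3/4 at 38.9 and 5/6 at 34.4. The highest NON pool of T1 was at 31.1 (left) and 29.4 (right).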

How the results depend on the processing

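Of 2152 alternative values for 52 results, 2033 kept direction and side of the threshold; for those below that did not, the cause was not tested beyond what the alternative leaves out. With the mouse pool as a replicate block, the midbrain exceeded the hindbrain by 1.18, the left cortex by 1.91 and the right cortex by 1.82, and no call changed; genotype groups hold different mice, paired only by age at T2. With age-matched T2 pools as a replicate block, midbrain HEM PM turned to -0.047 and HOM PM to -0.00012, and HEM PM was -0.021 with 3 age-matched NON pools. Scaled by the positive control probes, HEM T2 AM turned to 0.0037, and the averaged midbrain differences turned to 0.0029 (HEM) and 0.0080 (HOM). On that scale HOM in T3 AM (0.82) and HOM T2 against T1 (0.95) were called, so that 1 midbrain genotype comparison was called in place of 0. With the single HOM PM pool of T3 taken in, HOM T3 against T1 was 0.98 in place of 0.62. Likewise, the HOM effect at T3 minus T1 was 1.07 in place of 0.65. HOM T2 AM was -0.050 without the first reference gene and -0.00073 with only the 2 groups. Scaled by Hcrt and Mch, HEM T2 AM was 0.12, HEM averaged 0.12 and HOM against HEM in T3 AM was -0.037. The T2 against T1 change with genotypes averaged was called with TMM (0.48), positive controls (0.63), DESeq2 (0.46), the likelihood-ratio test (0.44), background subtraction (0.53) and adjustment over all comparisons of the region (0.44). Background subtraction turned the Agrp to Pomc ratio of HEM in T3 AM to -0.00095.

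In T3 AM hindbrain, HEM against NON was 0.35 with positive controls, and was not called with adjustment over the region (-2.62), only the 2 groups (-2.93), without low-reference pools (-0.46) or without these and high-Hcrt pools (-0.46). HOM was not called with TMM (-2.63), positive controls (-0.28), adjustment over the region (-2.52), only the 2 groups (-2.68), previously diabetic transgenic pools only (-2.52), or without low-reference (-0.51) and also high-Hcrt pools (-0.50). NON T3 against T2 was -1.02 with positive controls, and was not called with background subtraction (1.23) or without low-reference (0.37) and also high-Hcrt pools (0.37). Averaged over AM and PM, HEM at T3 was 0.54 with positive controls, and was not called with collection time ignored (-1.56) or without low-reference (-0.77) and also high-Hcrt pools (-0.76). The count of hindbrain calls within AM or PM, 2, became 1 with TMM and 0 in the other alternatives that took away both. In T3 AM, HOM was also not called without HOM pool 3/4 (-2.28) or 12 (-2.52). HEM was -2.38 without HEM pool 2/3 and -2.94 without pool 12, each leaving a single HEM pool. NON T3 against T2 was also not called without T3 NON PM pool 1/2 (1.16). It was 1.27 without T2 NON AM pool 1/3, which leaves a single NON AM pool at T2.

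In the cortex the T3 falls were not called with TMM or DESeq2, at -0.45 and -0.45 (left HEM T3 against T2), -0.19 and -0.20 (left, averaged), -0.098 and -0.093 (left T3 against T1, averaged, and -0.40 without the second reference gene), -0.20 and -0.21 (right HOM T3 against T1, and -0.45 without the first reference gene), -0.14 and -0.096 (right HOM T3 against T2, also -0.36 without the first reference gene and -0.50 with adjustment over the region), -0.037 and -0.042 (right, averaged), and 0.019 and -0.0071 (right T3 against T1, averaged). All 7 were larger with positive controls (-2.01 to -1.36) and background subtraction (-1.63 to -0.82). The label previously diabetic gave 0.76 without the T3 NON pools and 0.70 with NON alone, neither called. The high-Hcrt, low-Hdc, averaged-genotype and label alternatives were chosen after seeing the data.

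Leaving out single pools moved the averaged HEM difference from -0.16 to 0.012 and the averaged HOM difference from -0.16 to 0.0086, T2 against T1 from 0.37 to 0.54, midbrain HEM T2 AM from -0.60 to 0.24 and PM from -0.12 to 0.22, HOM T2 AM from -0.17 to 0.22 and PM from -0.13 to 0.18, HOM T1 PM from -1.32 to -0.48 and HEM T1 PM from -0.97 to -0.37, NON T2 against T1 from 0.098 to 0.30, HEM T3 AM from 0.0020 to 0.50, HOM against HEM in T3 AM from 0.051 to 0.55, hindbrain T3 HEM averaged from -2.45 to -0.70, hindbrain T3 AM HEM from -3.97 to -0.46 and HOM from -3.87 to -0.36, hindbrain NON T3 against T2 from 0.30 to 2.05, right cortex HOM T3 against T1 from -0.72 to -0.36 and against T2 from -0.57 to -0.44, averaged T3 against T1 from -0.53 to -0.36 (left, not called without T3 HEM 7/9, NON 8/9 or 11, or T1 NON 2/7, HOM 1/5 or 6/7) and from -0.42 to -0.27 (right, not called without T3 HEM 9 or T1 HOM 8/9), the label term from 0.64 to 0.81, and the count of hindbrain calls from 0 to 2. Midbrain groups of 2 to 5 pools and cortical counts near background limit what could be detected.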

Other observations

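The 3 T1 HEM midbrain pools without a collection time were at 44.5, 86.2 and 32.0, and their mean ± SD of 54.2 ± 28.4 (n = 3) lay under the 84.6 of the 2 HEM PM pools. With collection time ignored and these pools included, HEM at T1 was lower than NON by a log2 fold-change of -0.73 (SE 0.28, unadjusted p = 0.0117, adjusted p = 0.172). Without the pair of low Hdc, an alternative chosen after seeing the data, it was -0.38 (SE 0.30, adjusted p = 0.623).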
